A study of Mus musculus with 47 samples.

Results

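The dystrophin-glycoprotein complex was followed through its genes Dmd, Utrn, Dag1, Sgca, Sgcb, Sgcd, Sspn and Dtna, which were chosen by symbol, so that 8 of the 45706 genes in the count tables are described here. The complex spans the muscle membrane. Dystrophin (Dmd), or its close relative utrophin (Utrn), binds actin inside the cell and dystroglycan (Dag1), whose outer subunit holds laminin in the extracellular matrix once it carries a special glycan. The sarcoglycans (Sgca, Sgcb, Sgcd) and sarcospan (Sspn) stabilize dystroglycan in the membrane, and dystrobrevin (Dtna) attaches to dystrophin and carries signalling proteins. Loss of dystrophin or of a sarcoglycan causes muscular dystrophy.

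PolyA RNA was sequenced from C2C12, an immortalized mouse myoblast line that fuses into myotubes after serum withdrawal. C2C12 iMyoD1 cells carry endogenous MyoD1 and a doxycycline (dox)-inducible Halo-MyoD1, while C2C12 iCdh23 and C2C12 iMcam carry an inducible copy of the adhesion genes Cdh23 and Mcam. C2C12 iMyoD1 was sampled undifferentiated after 24 h of dox or vehicle, and after 24, 48 and 120 h of serum starvation with dox or vehicle for the same time, and the iCdh23 and iMcam lines were sampled at 48 h with 48 h of dox or vehicle. At 120 h the culture was taken whole, or split by a 40 µm filter into a myoblast-enriched and a myotube-enriched fraction. The transgenes were integrated by transposition and driven by a dox-responsive promoter, the iMyoD1 line was a polyclonal population in which a part of the nuclei express Halo-MyoD1, and all groups share serum starvation except the undifferentiated ones, called 0 h here. Each of the 16 groups had 3 libraries except the myoblast-enriched fraction with dox, which had 2. Levels are in CPM, the estimated counts scaled to library sizes that TMM factors (trimmed mean of M-values) had adjusted, and group values are means ± SD with n = 3 unless stated.

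The libraries held between 15066362 and 50950707 estimated counts. The 0 and 24 h libraries were deposited in a table of their own, the 48 h and whole 120 h libraries of C2C12 iMyoD1 in another, and the fractions and the other lines in the last, so that the change from 24 to 48 h and a difference between tables cannot be told apart. The induced genes gave an uneven check of the labels. Mcam was at 69.1 to 74.5 CPM with dox in its line and at 17.0 to 19.5 CPM without. Cdh23 in its line was at 416 to 566 CPM with dox and already at 343 to 444 CPM without, ranges that overlap, against 8.48 to 10.2 CPM in the 48 h iMyoD1 libraries without dox, so that the Cdh23 count does not separate the dox labels of its line. Myod1 was at 110 to 123 CPM with dox and 136 to 142 CPM without at 24 h, and whether reads of its transgene are counted under the same symbol is not given in the sources used here.

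Sgca and Sgcd are shown at the sequence level because they responded to dox in opposite directions at 48 h in the iMyoD1 line. The RefSeq windows on GRCm38.p6 hold 300 bases around a transcript start on the minus strand of chromosome 11, chr11:94976278-94976577 for Sgca and chr11:47379276-47379575 for Sgcd, printed 5′ to 3′ with every CANNTG, the E-box letters that MyoD1 family factors can bind, in capitals.
Sgca: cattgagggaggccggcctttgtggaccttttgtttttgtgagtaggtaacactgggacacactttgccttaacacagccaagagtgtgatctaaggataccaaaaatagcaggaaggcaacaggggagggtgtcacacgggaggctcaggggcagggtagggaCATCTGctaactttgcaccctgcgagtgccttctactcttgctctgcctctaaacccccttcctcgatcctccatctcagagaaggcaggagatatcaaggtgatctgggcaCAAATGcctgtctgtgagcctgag
Sgcd: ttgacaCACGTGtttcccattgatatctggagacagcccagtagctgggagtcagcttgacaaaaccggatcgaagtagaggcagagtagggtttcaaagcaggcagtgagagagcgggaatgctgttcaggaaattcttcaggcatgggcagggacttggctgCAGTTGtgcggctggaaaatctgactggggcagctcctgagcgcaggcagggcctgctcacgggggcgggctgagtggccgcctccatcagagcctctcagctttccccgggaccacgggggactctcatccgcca
Both windows held 2 CANNTG matches. The motif reads the same pattern on both strands, and 72.3% of the 32851 windows in the RefSeq table held at least 1. CAGCTG, which is its own reverse complement, was in neither window nor in any other window found for the complex genes, and was in 16.3% of all windows. CAGGTG or its reverse complement CACCTG was likewise in none of them and in 20.2% of all windows. The Sgca window lies at the start of the transcript Sgca-202, whereas Sgca-201, with 79.2% of the Sgca counts, starts 2864 nt downstream of it. A window was found for 7 of the 8 genes. A match of letters is a description and not a binding site, and these letters may lie outside the windows.

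Dystrophin RNA was nearly absent until 120 h. In whole 120 h cultures Dmd was at 3.11, 2.73 and 3.53 CPM without dox and at 1.05, 2.48 and 2.82 CPM with dox. In the 0, 24 and 48 h groups of the 3 lines no library held more than 4 counts of Dmd. The 48 h and whole 120 h groups did not overlap in either arm.

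Against 3 Dmd counts in the 48 h libraries without dox, the 200 counts at 120 h gave a ratio of 60.0 with a 95% counting interval from 20.2 to 293. All 3 counts at 48 h came from replicate 1, and without that library there were 0 counts, against which Dmd was at least 21.1-fold higher by a floor of 3 counts per library. With dox there were 0 counts at 48 h, and Dmd was at least 22.7-fold higher at 120 h against a floor of 3 counts per library. The dox difference in whole 120 h cultures was within the spread between libraries (log2 fold change -0.57 ± 0.38 SE, adjusted p = 0.245 in edgeR's quasi-likelihood test). The full-length transcript Dmd-203, with 14910 nt of annotated exons on chromosome X from 82948903 to 85206141, held between 86.5% and 94.7% of the Dmd counts in the 3 whole cultures without dox, and a median of 57.3% when each transcript's count was divided by its length.

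The 120 h fractions did not hold dystrophin RNA evenly. Replicate 2 of the myotube-enriched fraction was at 5.59 CPM without dox and 4.08 CPM with dox. The other myotube-enriched libraries were at 0.36 and 0.50 CPM without dox and 0.13 and 0.20 CPM with dox, from 2 to 11 counts. In each arm the group mean therefore came from a single library. The myoblast-enriched libraries held between 1 and 8 counts of Dmd.

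Utrophin was the abundant dystrophin relative in every group, from a gene on the minus strand of chromosome 10 between 12382188 and 12869365 (GENCODE vM21, GRCm38). Its lowest group mean was 75.6 CPM, at 24 h without dox, and its highest was 245 CPM, in whole 120 h cultures without dox. On the length-scaled scale, in which each transcript's count is divided by its annotated length and each library is scaled to the same total, Utrn exceeded Dmd by 58.8 to 74.1 times in the whole 120 h libraries without dox and by 102 to 276 times in those with dox.

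Utrn had its own course. It was at 180 ± 8.43 CPM at 0 h, 75.6 ± 6.40 CPM at 24 h, 89.4 ± 5.40 CPM at 48 h and 245 ± 5.89 CPM at 120 h without dox. It fell by 1.24 on the log2 scale from 0 to 24 h (SE 0.07, edgeR adjusted p = 1.58e-09) and rose 2.82-fold from 48 to 120 h (edgeR adjusted p = 1.06e-06). The step from 24 to 48 h was only 0.29 (edgeR adjusted p = 0.00281). Dox raised Utrn modestly at 24 h, where the groups did not overlap (log2 fold change 0.36 ± 0.07 SE, edgeR adjusted p = 0.00104), and lowered it in the iCdh23 line (-0.40 ± 0.11 SE, edgeR adjusted p = 0.0179), where Utrn did not pass with all groups of the table in the fit (adjusted p = 0.107) or with library sizes alone as the scale (-0.06, adjusted p = 0.61). On the length-scaled scale Utrn was at 27.7 ± 3.69 without and 28.2 ± 3.15 with dox in that line. In the other 6 dox comparisons Utrn did not pass the test.

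**Figure D1:**
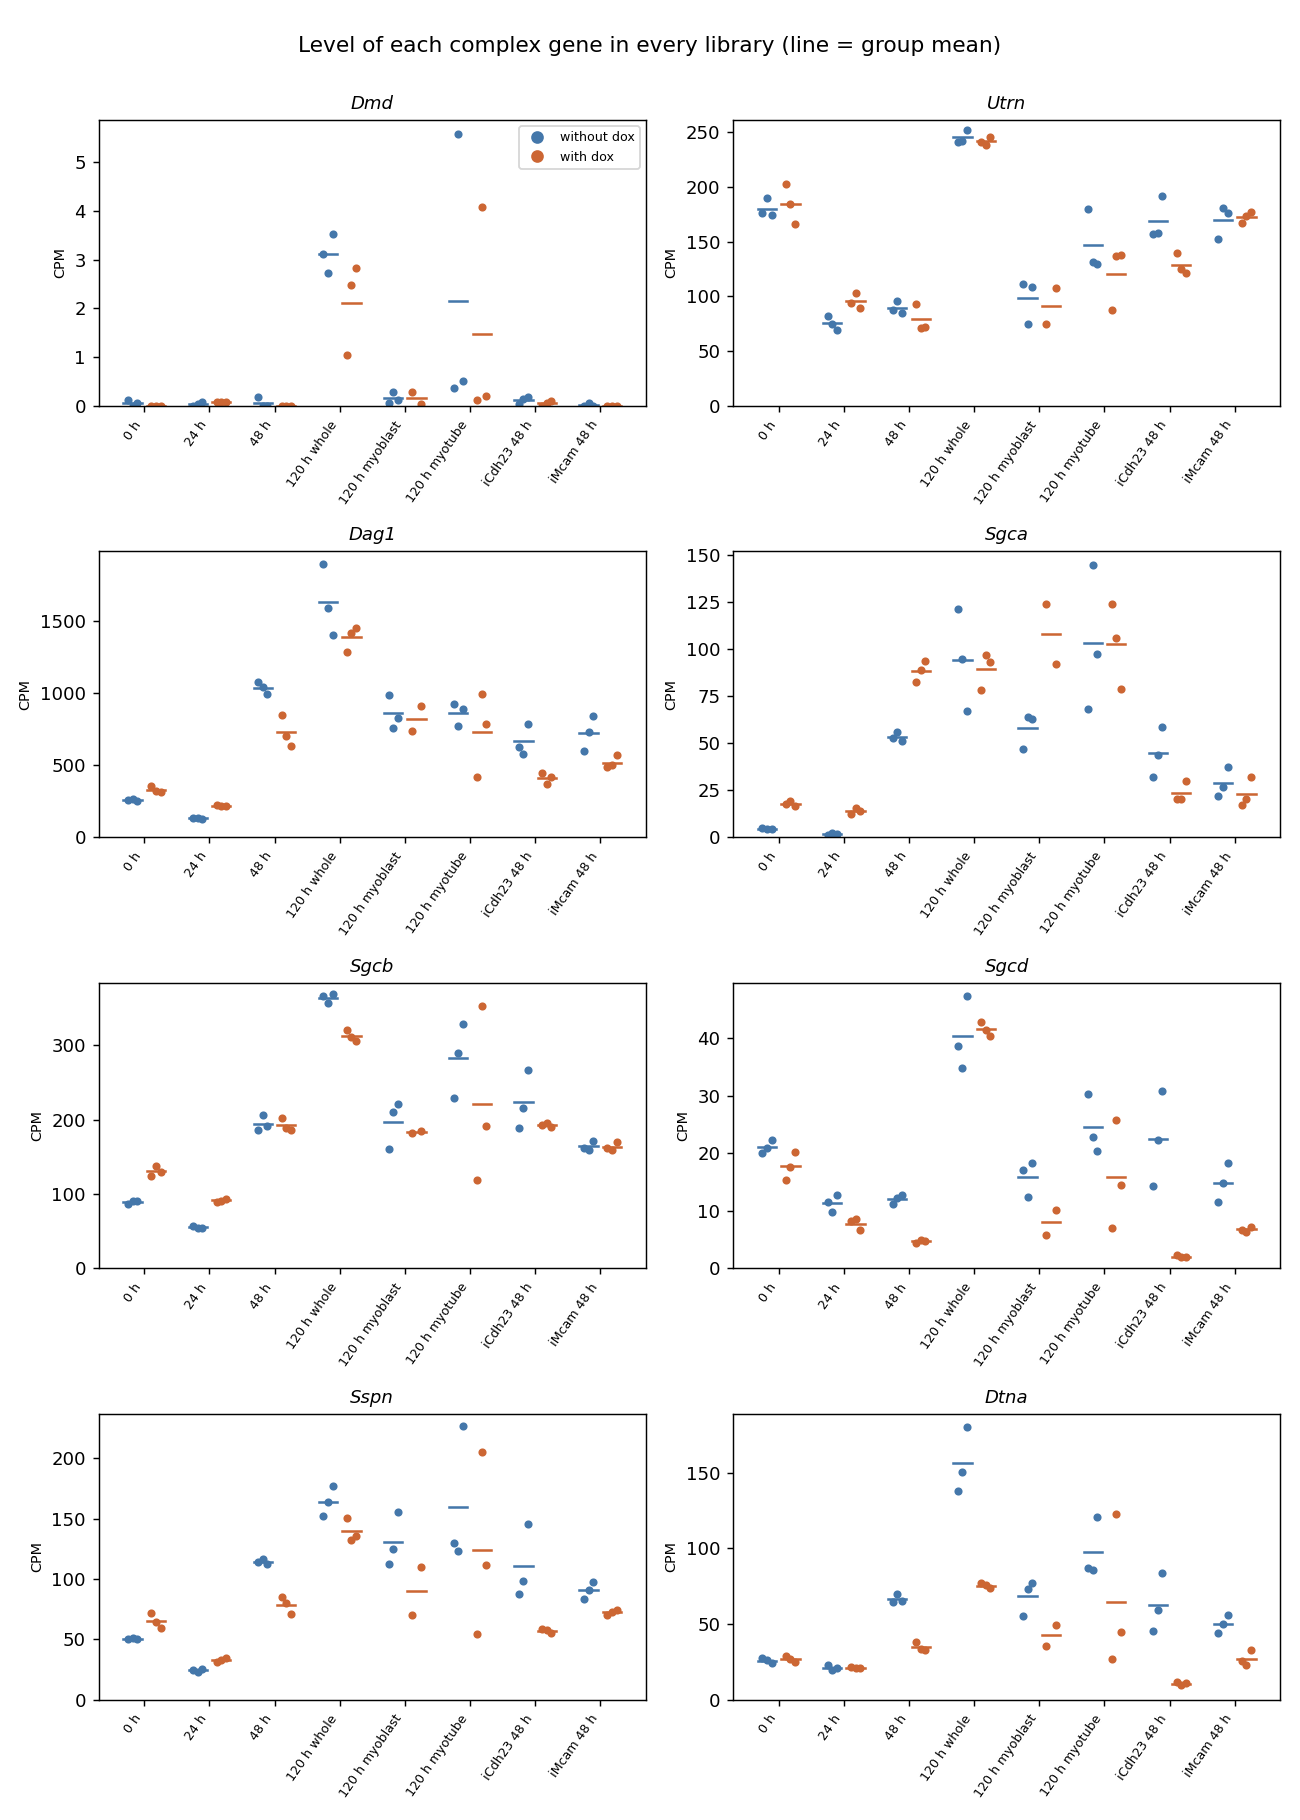
Level of the 8 complex genes in each library, in CPM on linear axes from 0, by time, fraction or line, with blue points without dox and orange points with dox and a line at each group mean. Dmd exceeds 4 counts only in 120 h libraries, Sgca is higher with dox at 0, 24 and 48 h, and Sgcd is lower with dox at 48 h in all 3 lines.

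Dag1, which encodes both dystroglycan subunits from chromosome 9 between 108204634 and 108263958, was the most abundant member by count. Without dox it was at 258, 265 and 249 CPM at 0 h, fell to 133, 135 and 124 CPM at 24 h, and was at 1077, 1045 and 994 CPM at 48 h. In whole 120 h cultures it reached 1897, 1591 and 1404 CPM. None of the neighbouring times overlapped.

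The rise from 24 to 48 h was 3.04 on the log2 scale (SE 0.07, edgeR adjusted p = 1.27e-13). Dag1 was higher with dox at 0 h (0.37 ± 0.06 SE, edgeR adjusted p = 0.000194) and at 24 h (0.76 ± 0.05 SE, edgeR adjusted p = 1.61e-07), and lower with dox at 48 h (-0.51 ± 0.10 SE, edgeR adjusted p = 0.0013). It was also lower with dox in the iCdh23 line (-0.69 ± 0.14 SE, edgeR adjusted p = 0.00384) and the iMcam line (-0.46 ± 0.14 SE, edgeR adjusted p = 0.0274). No dox change of Dag1 reached 2-fold with TMM factors. The longest Dag1 transcript, of 5662 nt, held 61.5% to 63.8% of the Dag1 counts at 0 h and 91.1% to 92.2% at 48 h without dox in the iMyoD1 line, but 72.2% to 79.0% and 70.6% to 79.5% at 48 h without dox in the iCdh23 and iMcam lines, and all 3 leading Dag1 transcripts have the same 2679 coding bases.

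Sgca, the muscle-restricted alpha-sarcoglycan, had the largest dox increase of the complex. At 0 h it was at 4.68, 4.44 and 4.38 CPM without dox and at 17.7, 19.4 and 16.3 CPM with dox. At 24 h it was at 1.12, 1.95 and 1.37 CPM without dox and at 12.3, 15.3 and 13.6 CPM with dox. The groups did not overlap at either time.

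The difference was 1.99 on the log2 scale at 0 h (SE 0.12, edgeR adjusted p = 2.69e-08) and 3.22 at 24 h (SE 0.17, edgeR adjusted p = 1.27e-08), a 9.35-fold change. At 48 h, when the level without dox had itself risen to 52.9, 56.0 and 50.9 CPM, the libraries with dox were at 82.2, 88.8 and 93.7 CPM, a difference of 0.72 (SE 0.07, edgeR adjusted p = 1.39e-05). In whole 120 h cultures the arms overlapped, at 94.2 ± 27.1 CPM without and 89.5 ± 9.89 CPM with dox. In the myoblast-enriched fraction Sgca was at 46.8, 63.9 and 62.7 CPM without dox and at 124 and 92.0 CPM with dox, a difference of 0.91 (SE 0.20, edgeR adjusted p = 0.0491) that did not pass the threshold when all groups of the table were fitted together (adjusted p = 0.263).

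In the other lines Sgca did not pass as higher with dox. Sgca in the iCdh23 line was at 44.8 ± 13.5 CPM without dox and 23.3 ± 5.69 CPM with dox, a fall of 0.95 on the log2 scale (SE 0.25, edgeR adjusted p = 0.0125). Leaving out single libraries moved the Sgca change past 2-fold (-1.16, without replicate 1 of the libraries without dox) or over the threshold (adjusted p = 0.0507, without replicate 1 of the libraries with dox). In the iMcam line it was at 22.1, 26.8 and 37.1 CPM without dox and 17.3, 20.4 and 31.7 CPM with dox, so that the groups overlapped (-0.29 ± 0.26 SE, edgeR adjusted p = 0.381). With the replicate number as a block, the iMcam difference was -0.30 with an edgeR adjusted p of 0.0199, each same-numbered library being lower with dox in CPM. On the length-scaled scale, which divides each transcript's count by its length and carries no TMM factor, Sgca in the iMcam line averaged 45.1 ± 10.7 without and 47.3 ± 14.7 with dox, and replicates 1 and 3 were higher with dox.

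Sgcb, which encodes beta-sarcoglycan on chromosome 5 between 73632749 and 73647790, fell from 0 to 24 h and rose from there, as Dag1 did. It was at 89.4 ± 2.46 CPM at 0 h, 55.2 ± 1.45 CPM at 24 h, 195 ± 10.6 CPM at 48 h and 364 ± 6.60 CPM in whole 120 h cultures without dox. Dox raised it at 0 h (0.55 ± 0.06 SE, edgeR adjusted p = 6.61e-06) and 24 h (0.76 ± 0.05 SE, edgeR adjusted p = 1.33e-07). At 48 h its arms overlapped in all 3 lines (adjusted p between 0.184 and 0.921 in edgeR). Sgcb was lower with dox in whole 120 h cultures, at 313 ± 7.80 CPM, and the arms did not overlap (-0.23 ± 0.07 SE, edgeR adjusted p = 0.0318), but it did not pass when any of 4 single libraries was left out (adjusted p between 0.0668 and 0.118).

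Sgcd, which encodes delta-sarcoglycan, was lower with dox at 48 h in all 3 lines. At 48 h it was at 11.2, 12.3 and 12.8 CPM without dox and at 4.38, 4.90 and 4.82 CPM with dox in the iMyoD1 line. The iCdh23 line had 14.4, 22.4 and 30.8 CPM without dox and 2.25, 1.94 and 1.93 CPM with dox. In the iMcam line it was at 11.5, 14.8 and 18.3 CPM without dox and at 6.67, 6.38 and 7.25 CPM with dox. The arms did not overlap in any of the 3 lines, and the iCdh23 libraries with dox held the lowest Sgcd of all groups.

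Sgcd fell by 1.38 on the log2 scale in the iMyoD1 line (SE 0.11, edgeR adjusted p = 2.83e-06), by 3.47 in the iCdh23 line (SE 0.30, edgeR adjusted p = 5.15e-05) and by 1.12 in the iMcam line (SE 0.18, edgeR adjusted p = 0.00225). The last was past 2-fold by little, and without replicate 3 of the iMcam libraries without dox Sgcd was at -0.94 (edgeR adjusted p = 0.00237). The fall was larger in the iCdh23 than in the iMcam line, with a difference of -2.33 between the effects (SE 0.37, edgeR adjusted p = 0.0026 for the interaction). In whole 120 h cultures the arms overlapped, at 40.4 ± 6.41 CPM without and 41.6 ± 1.21 CPM with dox, so that Sgcd rose from 48 to 120 h by 1.77 without dox (SE 0.14, edgeR adjusted p = 6.24e-06) and by 3.17 with dox (SE 0.11, edgeR adjusted p = 2.34e-10).

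Sspn, the gene of the tetraspanin-like sarcospan on chromosome 6 between 145931641 and 145965223, was at 50.6 ± 0.70 CPM at 0 h, 24.3 ± 1.29 CPM at 24 h, 114 ± 2.25 CPM at 48 h and 164 ± 12.2 CPM in whole 120 h cultures without dox. Dox raised it at 0 h (0.37, edgeR adjusted p = 0.000884) and 24 h (0.46, edgeR adjusted p = 5.91e-05) and lowered it at 48 h (-0.54, edgeR adjusted p = 9.88e-05), in the iCdh23 line (-0.96, edgeR adjusted p = 0.0029, and -1.11 without replicate 1 of the libraries without dox) and in the iMcam line (-0.30, edgeR adjusted p = 0.0212). The direction with dox thus differed between early and 48 h libraries, as for Dag1.

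Dtna, which encodes alpha-dystrobrevin, did not pass the test for dox at 0 or 24 h (0.06 and 0.03 on the log2 scale, edgeR adjusted p = 0.59 and 0.749) and was lower with dox later. At 48 h it was at 64.5, 69.9 and 65.0 CPM without dox and 38.0, 33.4 and 32.7 CPM with dox. In whole 120 h cultures it was at 138, 150 and 180 CPM without dox and 76.8, 75.6 and 73.6 CPM with dox. The iCdh23 line had 45.5, 59.2 and 83.8 CPM without dox and 11.3, 9.63 and 10.8 CPM with dox.

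None of these arms overlapped. The log2 fold changes were -0.94 at 48 h (SE 0.08, edgeR adjusted p = 3.58e-06), -1.06 at 120 h (SE 0.11, edgeR adjusted p = 6.62e-05), -2.58 in the iCdh23 line (SE 0.23, edgeR adjusted p = 5.92e-05) and -0.87 in the iMcam line (SE 0.15, edgeR adjusted p = 0.00308). The 120 h change of Dtna was the only one of the 8 members in the whole-culture comparison past 2-fold, and it was -0.95 without replicate 3 of the libraries without dox. The 48 h change was -1.01, past 2-fold, without replicate 1 of the libraries with dox, and so was the iMcam change (-1.02) without replicate 3 of the libraries with dox. When all groups of the table were fitted together, the iMcam change of Dtna did not pass (edgeR adjusted p = 0.0819), nor did those of Dag1 (0.131) and Sspn (0.512). The Dtna effects in the iCdh23 and iMcam lines differed by -1.69 (SE 0.29, edgeR adjusted p = 0.0044 for the interaction).

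The estimated transcript makeup of Dtna differed between times. The tables list a long transcript, Dtna-202, with 2046 coding bases, and a shorter one, Dtna-201, with 1113 coding bases and an earlier 3′ end. Dtna-201 held 5.60%, 4.75% and 2.68% of the Dtna counts at 0 h without dox and 43.6%, 42.8% and 36.7% at 48 h. With dox at 48 h its share was 26.1%, 31.3% and 25.0%.

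The share with dox at 48 h was below every library without dox in the iMyoD1 line, while in whole 120 h cultures the arms overlapped. In the iCdh23 line the share was 16.5%, 28.3% and 34.2% without dox and 0.647%, 0% and 4.78% with dox, where the 0 allows a share of up to 1.01% (3 counts of the library's Dtna total). In the iMcam line it was 13.4%, 23.1% and 27.2% without dox and 4.20%, 4.35% and 15.6% with dox, and these groups overlapped, although each library with dox was below the library of the same number without dox. The shares are estimates that divide reads between transcripts sharing most of their sequence, no test was fitted to them, and shares of length-scaled counts put Dtna-201 higher, at 69.6% to 75.3% at 48 h without dox.

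**Figure D2:**
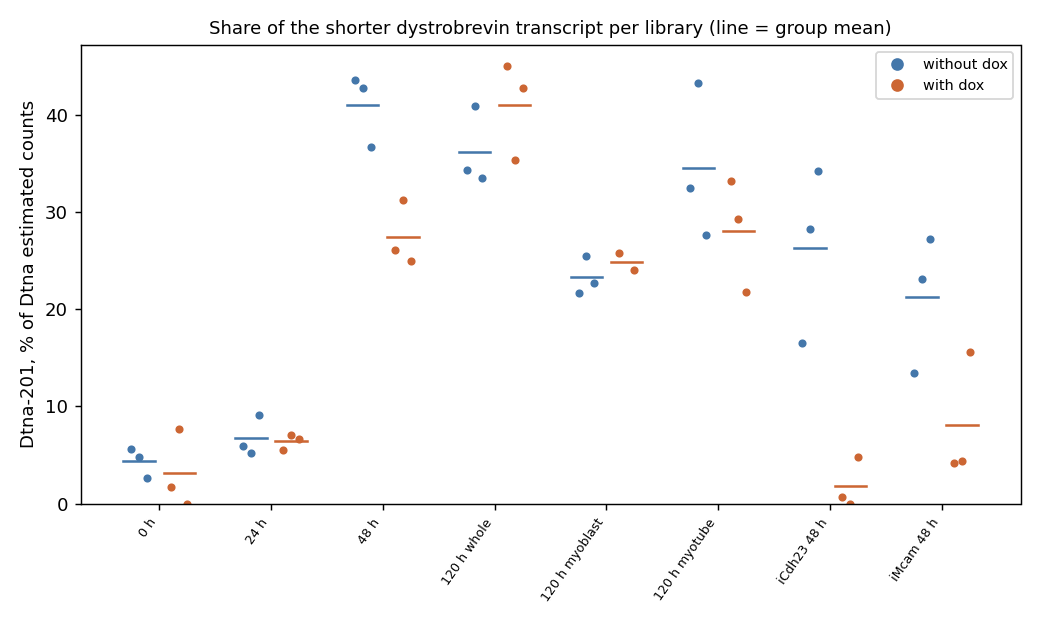
Share of the shorter transcript Dtna-201 in the Dtna estimated counts, in percent, for each library, by time, fraction or line, with blue points without dox, orange points with dox and a line at each group mean. The share was at most 9.13% in the 0 and 24 h libraries and between 36.7% and 43.6% at 48 h without dox in the iMyoD1 line.

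Across dox comparisons, the members past both the adjusted p of 0.05 and 2-fold were few. At 0 h 1 of the 7 tested was called, Sgca, where 4.27% of all genes tested were called, and at 24 h again Sgca, beside 13.1% of all genes. At 48 h Sgcd alone was called, beside 14.4% of all genes, and in whole 120 h cultures Dtna alone, beside 16.1%. In the iCdh23 line Sgcd and Dtna were called, beside 30.0% of all genes, and in the iMcam line Sgcd, beside 16.8%. Dmd was under the count filter in all dox comparisons but those of the whole 120 h culture and the myotube-enriched fraction.

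Counting an adjusted p under 0.05 at any size, 4 of 7 members were higher with dox at 0 h and 0 lower, beside 37.8% of all genes in either direction, and at 24 h 5 were higher and Sgcd was lower, beside 62.8%. At 48 h only Sgca was higher, and Dag1, Sgcd, Sspn and Dtna were lower, beside 56.6%. Of 8 members in whole 120 h cultures Sgcb and Dtna were lower and 0 higher, beside 45.2%. The median log2 fold change of the tested members was 0.37 at 0 h, 0.46 at 24 h and -0.51 at 48 h, while that of all genes tested stayed between -0.002 and 0.011. In the iCdh23 line 6 members were lower and 0 higher, with a median of -0.95, beside 63.8% of all genes, and in the iMcam line 4 were lower and 0 higher, with a median of -0.30, beside 49.0%. With the replicate number as a block 5 members passed in the iMcam line, Sgca being added. For the blocked fit no share of all genes is given. With only 7 or 8 members tested these counts are coarse, and they were not tested against the shares of all genes.

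The smaller dox effects depended on the scaling between libraries. The TMM factors set the bulk of genes equal between arms, and at 48 h they were 0.966 to 0.998 without and 1.228 to 1.232 with dox in the iCdh23 line. With library sizes alone, a scaling added after the values were seen, the median log2 fold change of all genes moved to 0.107 at 0 h, 0.261 at 24 h, 0.151 at 48 h, 0.201 in whole 120 h cultures, 0.328 in the iCdh23 line and 0.215 in the iMcam line. The share of all called genes that were higher with dox went from 61.0% to 80.5% at 24 h, from 41.2% to 53.0% at 48 h, from 45.4% to 63.1% in whole 120 h cultures, from 43.4% to 61.3% in the iCdh23 line and from 41.5% to 56.5% in the iMcam line.

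On that scale the falls of Sgcd and Dtna at 48 h passed in all 3 lines, with Sgcd at -1.24, -3.14 and -0.92 and Dtna at -0.80, -2.24 and -0.67 in the iMyoD1, iCdh23 and iMcam lines. Sgca in the iCdh23 line (-0.61, edgeR adjusted p = 0.0516), Dag1 (-0.26, 0.105) and Sspn (-0.10, 0.267) in the iMcam line and Sgcb in whole 120 h cultures (-0.02, 0.811) no longer passed. Utrn (0.24, edgeR adjusted p = 0.0376) and Sgcb (0.21, 0.0453) were higher with dox in the iMcam line. Dtna in whole 120 h cultures was at -0.86 (edgeR adjusted p = 0.000209), under 2-fold. At 24 h Sgcd did not pass (-0.26, edgeR adjusted p = 0.0813), Dtna was higher (0.29, edgeR adjusted p = 0.00607), and 3 members were called past 2-fold, beside 15.5% of all genes on that scale.

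The dox effect was more negative at 48 h than at 24 h for all 7 members tested, in an edgeR interaction test that called 43.4% of all genes. The difference was largest for Sgca (-2.50 ± 0.18 SE, adjusted p = 2.14e-08) and Dag1 (-1.28 ± 0.12 SE, adjusted p = 4.12e-07) and smallest for Utrn (-0.55 ± 0.14 SE, adjusted p = 0.00504). Between 48 h and whole 120 h cultures, where 34.1% of all genes were called, the effect differed for Sgcd (1.41 ± 0.17 SE, adjusted p = 2.43e-05) and Sgca (-0.80 ± 0.22 SE, adjusted p = 0.0133). Between the iCdh23 and iMcam lines it differed for Sgcd and Dtna, beside 10.6% of all genes, and with the replicate number as a block also for Sgca (-0.61, edgeR adjusted p = 0.0118).

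Interactions chosen after the values were seen compared further dox effects. The effect at 24 h exceeded that at 0 h for Sgca (1.18 ± 0.21 SE, edgeR adjusted p = 0.000349) and Dag1 (0.35 ± 0.08 SE, edgeR adjusted p = 0.0019), beside 34.1% of all genes. The iCdh23 line had a more negative effect than the iMyoD1 line at 48 h for Sgca (-1.65), Sgcd (-2.08) and Dtna (-1.62), beside 35.8% of all genes, with edgeR adjusted p of 0.000497, 0.000253 and 0.000213. For the iMcam line 0 of 7 members passed in edgeR, beside 6.41% of all genes, with Sgca nearest at -1.02 (adjusted p = 0.0521). With the replicate number as a block Sgca passed there (edgeR adjusted p = 0.0238). 1 member had an unadjusted p under 0.05 there, with no share of all genes given for that threshold, and DESeq2 called 1.

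**Figure D3:**
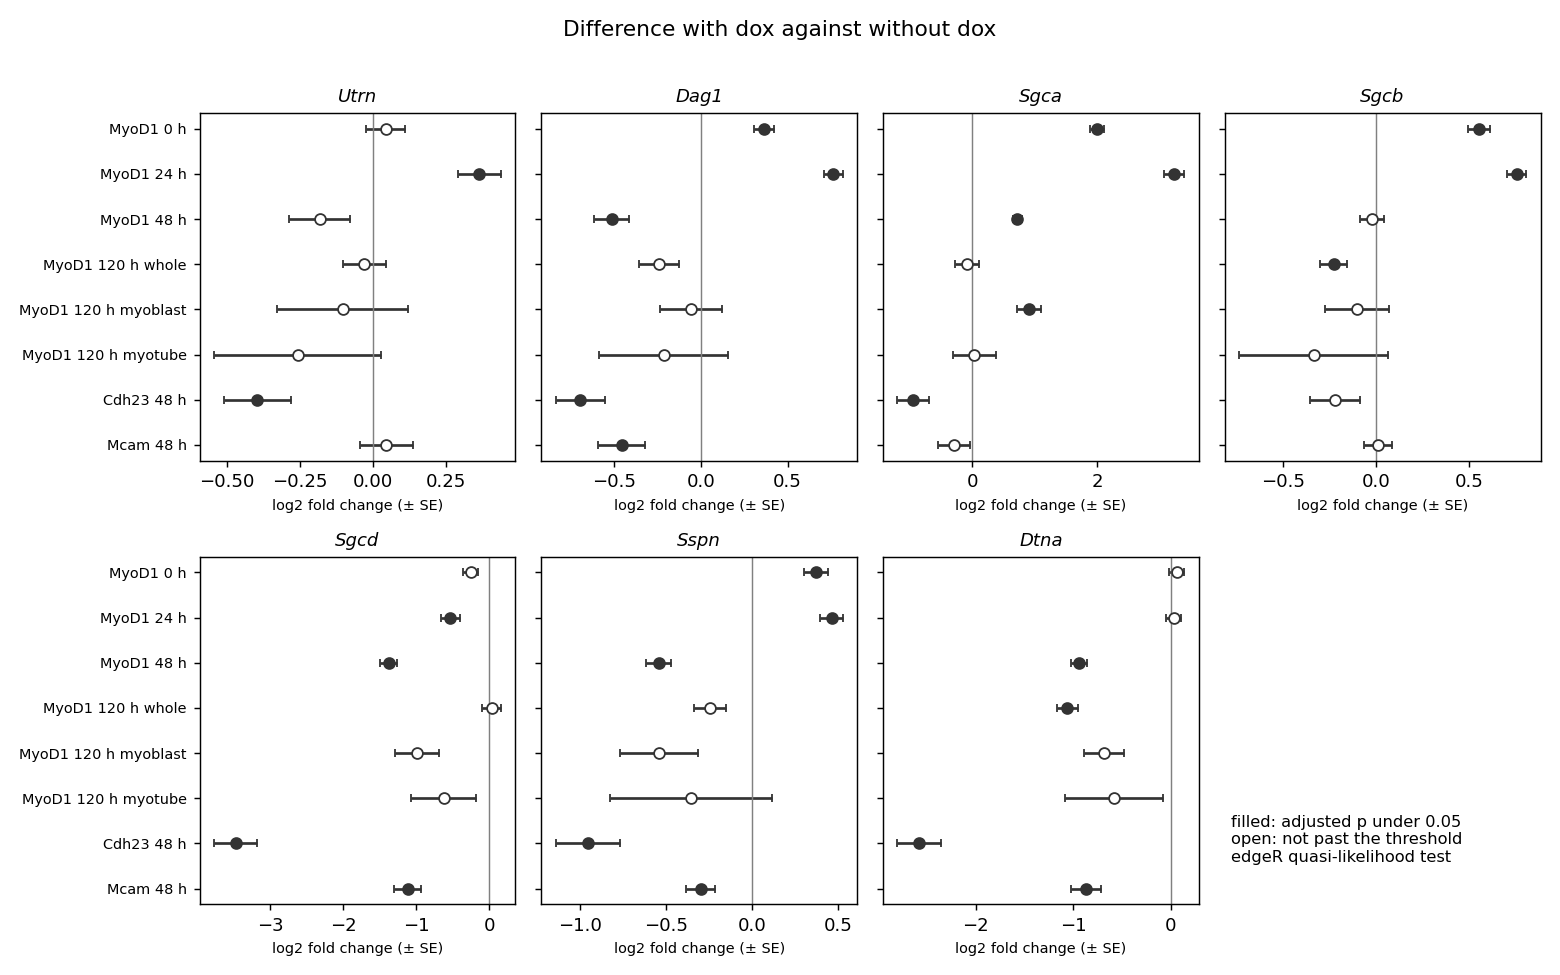
log2 fold change with dox against without dox (± SE, edgeR) for the 7 members tested throughout, 1 panel each with its own scale, by comparison. Filled points had an adjusted p under 0.05: Sgca lies at 1.99 and 3.22 at 0 and 24 h, and Sgcd at -3.47 in the iCdh23 line.

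The levels of several marker lists moved with the dox effects at 48 h. The summed level of the 8 myotube markers lay between 12650 and 13890 CPM without dox and between 5037 and 5173 CPM with dox in the iMyoD1 line. In the iCdh23 line it was 5252 to 9082 CPM without dox and 36.9 to 126 CPM with dox, and in the iMcam line 3862 to 9499 CPM and 517 to 1628 CPM. At 0 and 24 h the sum was at most 13.4 CPM in every library, although 2 of 3 tested myotube markers were called higher with dox at 0 h. Of the 4 unfused myoblast markers 1 was called higher with dox at 0 h, and 1 higher and 1 lower at 24 h. Of 3 smooth muscle markers tested 1 was called higher at each of these times, and 0 lower. Of all genes 4.27% were called at 0 h and 13.1% at 24 h. In whole 120 h cultures the myotube sum was 14920 to 18020 CPM without and 10030 to 11770 CPM with dox, with 2 of 8 genes called lower, while the proliferation sum was 247 to 274 CPM without and 408 to 475 CPM with dox, with 1 of 6 called higher, and 2 of 4 smooth muscle markers were called higher. The summed level of the 6 proliferation markers was lower with dox at 48 h, at 407 to 422 CPM against 1150 to 1185 CPM without in the iMyoD1 line, where 4 of 6 were called, at 48.7 to 64.6 CPM against 780 to 989 CPM in the iCdh23 line and at 93.3 to 149 CPM against 685 to 832 CPM in the iMcam line, where 6 of 6 were called in each. The 4 unfused myoblast markers summed to 665 to 698 CPM without and 711 to 718 CPM with dox in the iMyoD1 line, 492 to 568 CPM and 217 to 280 CPM in the iCdh23 line, and 412 to 433 CPM and 247 to 298 CPM in the iMcam line. The 4 smooth muscle markers, the 4 osteoblast markers and the 4 neural and Schwann markers had lower sums in every library with dox than in every library without at 48 h in each line. The smooth muscle genes did not all go that way, since at 48 h 1 of 3 tested was called higher and 0 lower in the iMyoD1 line, 2 higher and 2 lower in the iCdh23 line and 0 higher and 1 lower in the iMcam line. Of the osteoblast markers only 1 passed the count filter at 48 h in each line, and the sum there was at most 39.2 CPM. In whole 120 h cultures 2 passed the filter, and 1 was called lower with dox. The part of these markers in the changes of the complex genes was not tested, and in bulk RNA fewer cells of a type and less RNA per cell cannot be told apart. Adipocyte markers were at or under the floor of 3 counts in 3 or all 4 of the genes in every group.

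Without dox the complex changed in 3 steps over time. The 24 and 48 h libraries were deposited separately, so that in this step time and deposit cannot be told apart. From 0 to 24 h all 7 tested members fell, Utrn, Sgca and Sspn past 2-fold, beside 26.1% of all genes called and 74.3% at any size. From 24 to 48 h Sgca rose by 5.20 on the log2 scale, Dag1 by 3.04, Sspn by 2.29, Sgcb by 1.87 and Dtna by 1.72, each with an edgeR adjusted p of at most 1.39e-10, beside 30.4% of all genes called and 76.8% at any size, while Sgcd did not pass (0.15 ± 0.12 SE, adjusted p = 0.278). From 48 to 120 h all 8 rose, with Dmd, Sgcd (1.77), Dtna (1.27) and Utrn (2.82-fold) past 2-fold, beside 29.8% of all genes and 67.1% at any size. Of the myotube markers tested, 5 of 5 rose past 2-fold from 0 to 24 h and 8 of 8 from 24 to 48 h. From 48 to 120 h 2 of 8 rose and 1 fell. Of the 6 proliferation markers 5, 0 and 6 fell in the 3 steps, and 0 rose. Other marker lists moved as well, and their part in these changes was not tested.

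The same steps were compared with dox, with the same limit from 24 to 48 h. From 0 to 24 h all 7 fell, with Sgcd alone past 2-fold, beside 16.8% of all genes and 68.0% at any size. From 24 to 48 h Sgca (2.67), Dag1 (1.73), Sspn (1.24) and Sgcb (1.05) rose past 2-fold, beside 28.8% of all genes and 72.4% at any size, while Sgcd fell by 0.74 (SE 0.13, edgeR adjusted p = 0.000441) and Utrn by 0.29 (SE 0.10, edgeR adjusted p = 0.0273). From 48 to 120 h Dmd, Sgcd, Utrn and Dtna rose past 2-fold, beside 36.4% of all genes and 73.5% at any size, and Sgca did not change beyond the spread between libraries (0.05 ± 0.10 SE, adjusted p = 0.696). Whether each step differed between the arms is given by the interactions above for the dox effect.

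**Figure D4:**
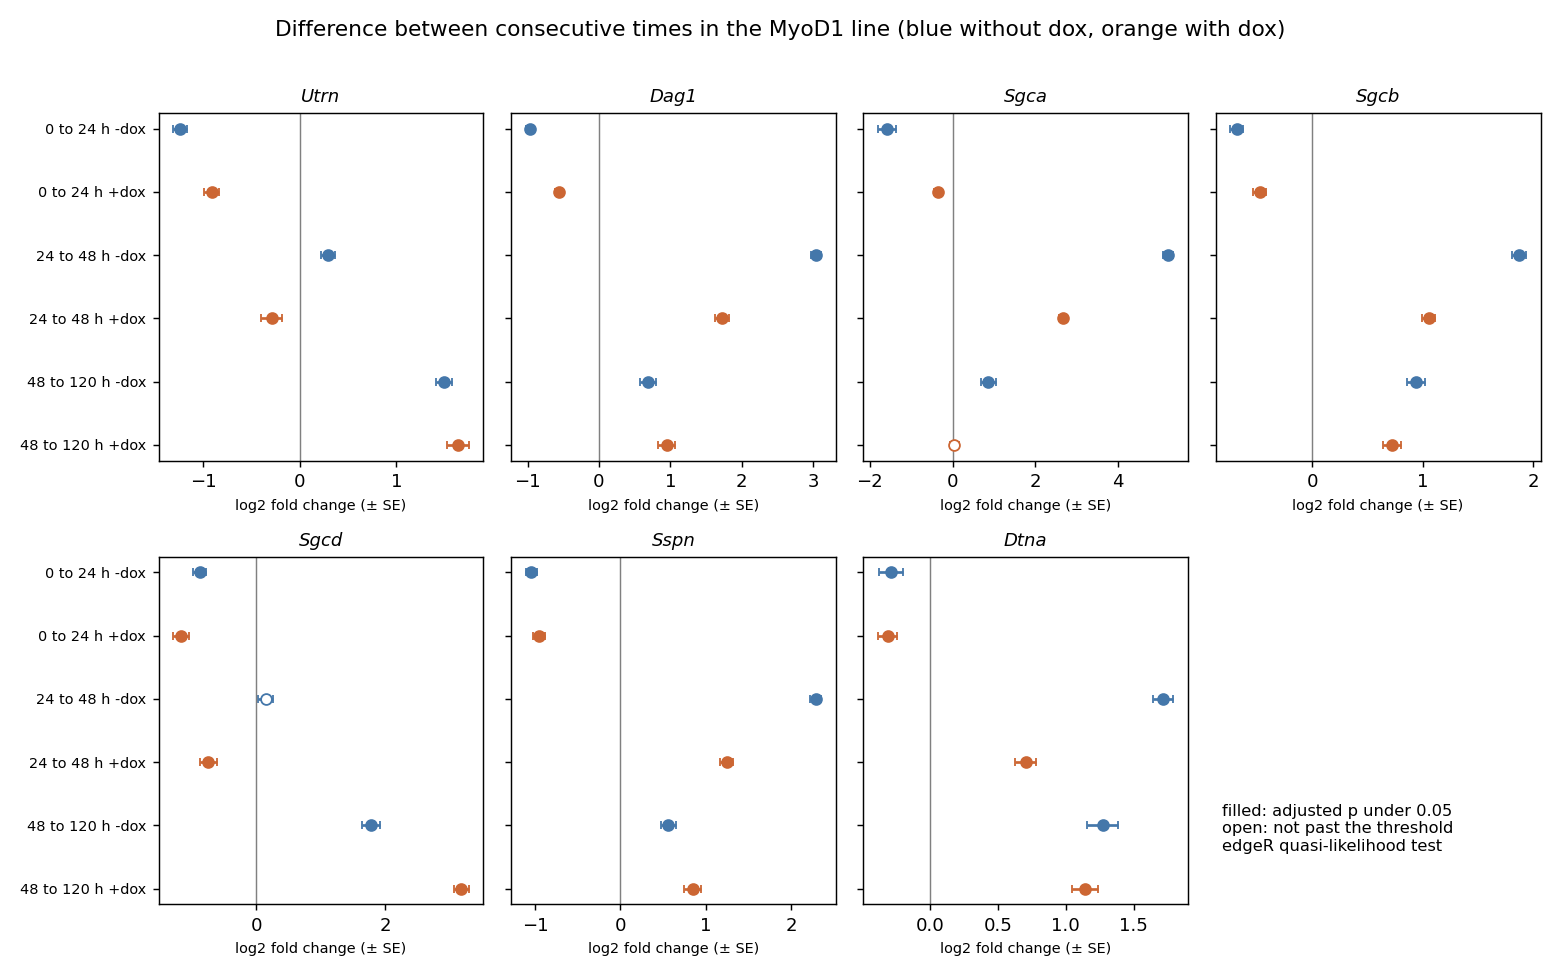
log2 fold change between consecutive times in the iMyoD1 line (± SE, edgeR), blue without dox and orange with dox, for the 7 members tested throughout, with filled points at an adjusted p under 0.05. All 7 lie below 0 from 0 to 24 h in both arms, and Sgcd lies at -0.74 from 24 to 48 h with dox.

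None of the 7 members that reached the count filter passed the unpaired test between the 120 h fractions. Between the myotube-enriched and myoblast-enriched fractions without dox 0 of 7 tested members passed an adjusted p of 0.05 (lowest 0.19, edgeR), beside 0.585% of all genes called. 5 had an unadjusted p under 0.05, a threshold for which no share of all genes is given, and DESeq2 called 0. The fractions are the flow-through and the retentate of filtered cultures, and whether a shared number marks a shared culture is not stated. Dmd, Utrn, Sgca, Sgcb, Sgcd and Dtna were higher in the myotube-enriched library of every same-numbered pair without dox, and with the replicate number as a block Sgca passed (log2 fold change 0.80, edgeR adjusted p = 0.0477). Dmd was under the filter in this comparison, and without the filter it was called in edgeR (3.68 ± 0.91 SE, adjusted p = 0.0477), but not when all groups of the table were fitted together (adjusted p = 0.162). With dox 0 of 7 passed, beside 0.0% of all genes, with 0 at an unadjusted p under 0.05 and 0 called by DESeq2.

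The dox arms of the myotube-enriched fraction gave 0 of 8 members, beside 0.0% of all genes, with 0 at an unadjusted p under 0.05 and 0 by DESeq2, and the interaction between fractions gave 0 of 8 beside 0.0%, with 0 at an unadjusted p under 0.05 and 0 by DESeq2. In the myoblast-enriched fraction 0 of 7 were called past 2-fold, beside 3.03% of all genes, with 4 at an unadjusted p under 0.05 and 0 called past 2-fold by DESeq2. For the unadjusted threshold no share of all genes is given. Sgcd was at -0.99 there (edgeR adjusted p = 0.107, and 0.0243 in DESeq2) and Dtna at -0.68 (edgeR adjusted p = 0.11, and 0.0371 in DESeq2). At any size 1 of 7 had an edgeR adjusted p under 0.05, beside 4.34% of all genes. With the replicate number as a block 4 of 7 did, Sgcd, Sspn and Dtna being added, and 0 were past 2-fold. The libraries of the myotube-enriched fraction with dox were spread widely, their myotube marker sums being 14860, 20710 and 5130 CPM. Replicate 1 was the lowest of the 3 for 7 of the 8 members, Sgca being the exception.

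Whole 120 h cultures stood above both fractions for several members. Utrn, Dag1, Sgcb, Sgcd and Dtna were higher in every whole-culture library without dox than in every fraction library without dox, and with dox Utrn, Dag1 and Sgcd were. Among all genes at 5 CPM or more, 22.9% did so without dox and 23.8% with dox. Utrn was at 245 ± 5.89 CPM whole, 98.2 ± 20.5 CPM in the myoblast-enriched and 147 ± 28.4 CPM in the myotube-enriched fraction without dox. The fractions were trypsinized and filtered and sit in another table than the whole cultures, and these differences cannot be told apart.

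The members differed in how far their group means ranged. Sgca spanned 72.9-fold between its highest and lowest group mean, Sgcd 20.5-fold, Dtna 14.8-fold, Dag1 12.5-fold, Sspn 6.76-fold, Sgcb 6.59-fold and Utrn 3.25-fold. In the order of the 16 groups, the libraries of neighbouring groups were free of overlap in 8 of 15 steps for Dag1, 6 for Sgcb, 5 for Dtna, 4 for Sgca and Sspn, 3 for Sgcd, 1 for Utrn and 0 for Dmd. This was not counted over all genes, so it does not say how the members stand among them. On the length-scaled scale Dag1 was the highest member in every group, at 602 ± 101 in whole 120 h cultures without dox, where Sgcb was at 186 ± 4.88, Sgca at 142 ± 32.8 and Dmd at 0.57 ± 0.07.

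Over the 16 group means of log2(CPM + 1), the courses of Dag1 and Sspn were most alike among the members (Pearson r = 0.952), followed by Dag1 and Sgcb (0.941), and those of Utrn and Sgca least (0.124). Among the 12086 genes that reached 5 CPM in a group, the 5 most like Sgca were AI464131 (0.972), Rtn2 (0.956), Fgf11 (0.939), Tmem120b (0.935) and Capn3 (0.935). Those most like Dmd were Cmya5 (0.971), Gyg (0.943), Limch1 (0.94), Hist1h2be (0.938) and Dlg2 (0.932), and those most like Utrn were Srgap2 (0.931), Arid5b (0.922), Ccser2 (0.917), Sytl5 (0.916) and Col4a3bp (0.911). The groups share lines, tables and depth, so the coefficients are descriptions.

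Some of the other subunits and binding partners of the complex, a list of 12 genes, changed over time or with dox. From 24 to 48 h without dox 6 of 10 tested rose past 2-fold and 2 fell, beside 30.4% of all genes called in either direction. Cav3, the muscle caveolin, went from 0 counts in every library to 44.1 ± 1.09 CPM, and Sgcz, zeta-sarcoglycan, from 5.01 ± 0.23 CPM to 0 counts. From 48 to 120 h 4 of 9 rose and 1 fell, beside 29.8% of all genes, with Nos1, the neuronal nitric oxide synthase, going from 2.12 ± 0.22 to 14.1 ± 2.25 CPM.

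With dox, 2 of 7 of this list were higher and 1 lower at 24 h, beside 13.1% of all genes called, and 1 of 9 was higher and 2 lower at 48 h, beside 14.4%. Sntb1, a syntrophin that binds dystrophin and dystrobrevin, fell by 1.62, 5.07 and 2.08 on the log2 scale at 48 h in the iMyoD1, iCdh23 and iMcam lines (edgeR adjusted p = 0.000106, 6.34e-06 and 0.00421). Dtnb, the beta-dystrobrevin gene, rose by 1.25 at 24 h and 1.49 at 48 h (edgeR adjusted p = 1.58e-07 and 2.87e-06), the opposite direction to Dtna at 48 h. In the iCdh23 line 1 of 9 was higher and 5 lower, beside 30.0% of all genes, and in the iMcam line 1 was higher and 3 lower, beside 16.8%.

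Of the 17 genes for dystroglycan glycosylation 1 was called with dox at 48 h, beside 14.4% of all genes. It was Pomgnt2, which extends the O-mannosyl glycan, which was at 6.58 ± 0.96 CPM without and 19.4 ± 0.33 CPM with dox (log2 fold change 1.55 ± 0.11 SE, edgeR adjusted p = 1.04e-06). It was also higher with dox in the iCdh23 line (2.26, edgeR adjusted p = 1.32e-05) and the iMcam line (1.95, edgeR adjusted p = 0.00105), each the only gene of the list called, beside 30.0% and 16.8% of all genes. The median log2 fold change of the list was 0.20 at 48 h, beside 0.01 for all genes. At 24 h B3galnt2 fell by 1.34 with dox (SE 0.05, edgeR adjusted p = 1.45e-09) while Pomgnt2 rose by 1.13 (SE 0.10, edgeR adjusted p = 8.13e-07).

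Among the 11 ligand genes some were called higher and some lower with dox. Agrn, the gene of agrin, rose with dox by 1.19 at 24 h (edgeR adjusted p = 5.02e-09), 1.47 at 48 h (2.11e-07), 2.25 in the iCdh23 line (1.16e-05) and 2.24 in the iMcam line (0.000123). In the iMcam line that was from 98.1 ± 13.4 to 458 ± 48.7 CPM. Lamb2, a laminin beta chain, rose by 1.07 at 48 h and 1.41 in the iMcam line, while Lama4, a laminin alpha chain, fell by 1.03 and 1.37 (edgeR adjusted p = 4.28e-07, 0.000633, 0.000189 and 0.000783). Over the list, 2 of 9 were higher and 1 lower at 48 h, 2 of 10 higher and 4 lower in the iCdh23 line, and 2 of 9 higher and 2 lower in the iMcam line, beside 14.4%, 30.0% and 16.8% of all genes called.

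From 24 to 48 h without dox 5 of 10 tested ligand genes rose and 1 fell, beside 30.4% of all genes called, led by Lama2, the alpha chain of muscle laminin, from 1.45 ± 0.07 to 56.2 ± 4.33 CPM. Of the 7 intracellular linkers 2 rose in that step, beside the same 30.4%, Des, the muscle intermediate filament desmin, from 180 ± 13.1 to 1444 ± 85.5 CPM, and Sync, the desmin-binding syncoilin, from 12.8 ± 2.88 to 84.8 ± 0.43 CPM. Neither was called with dox at 48 h in the iMyoD1 line, where 0 of 7 linkers were called, beside 14.4% of all genes. Both were lower with dox in the iCdh23 line (Des -2.44, Sync -2.70) and the iMcam line (Des -1.55, Sync -1.17), with edgeR adjusted p of 4.88e-06, 1.38e-05, 0.00202 and 0.00172.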

How the data were processed

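Per the labels, polyA RNA was sequenced and mm10 is the genome build. The authors ran the nf-core RNA-seq pipeline, and the submitters' processing notes name Salmon; they deposited tables of estimated counts per transcript with no scaling. Aligner settings and the annotation are not given in the sources used here. Estimated counts were summed per gene and rounded. GENCODE vM21 gave lengths for 98.72% of 109617 transcripts. CPM used TMM factors over all libraries. Each comparison used its 2 groups, filterByExpr, edgeR 4.0.16 quasi-likelihood tests in R 4.3.3 and Benjamini-Hochberg adjustment over all genes tested. A gene was called at an adjusted p under 0.05 and over 2-fold. The authors' own test was DESeq2, used here as an alternative (1.42.0), beside RLE factors, no filter, library sizes alone (added after the data were seen), a fit of all groups of a table, a replicate block and each library left out.

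The members and lists were chosen with earlier results of these data known. Named list genes are at most 3 per list and main comparison with the largest log2 fold change among those called at 1 CPM or more. Simulated data with 200 genes changed 4-fold gave 197 recovered and 10 false calls for dox at 48 h. They gave 190 and 13 for dox in the myoblast-enriched fraction, and 183 and 5 for the iCdh23 against iMcam interaction. Libraries lack molecular identifiers, so intervals and floors cover counting error only, and p-values measure the spread between libraries described as biological replicates. Of 46 pairs of libraries within groups none was a copy (chi-square per gene 3.04 to 410.51). Among comparisons with 3 pairs, same-numbered libraries deviated together with a correlation over 0.1 in every pair in the iMcam line (0.248, 0.134 and 0.309), so the numbers were taken to pair those libraries from the data. The fitted values given for that line are unpaired unless a block is named. The fractions without dox had 0.302, 0.083 and 0.152, the iCdh23 line 0.113, 0.012 and 0.109, and dox in myoblast-enriched libraries 0.348 and 0.217 over 2 pairs. Exact permutation of 3 against 3 cannot go below p = 0.1. Sspn shares exonic bases with Sspnos and Dtna with Gm47898 on the other strand or overlapping, so their reads may be divided. The result of 1 gene of the lists is not reported here.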

Additional observations from a re-analysis of the deposited data

Results flagged for a closer look

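Each value here is a difference between dox effects in log2 units that passed an adjusted p of 0.05 in an edgeR interaction test, so that a dox effect at a time or in a line differed from that in another.

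The effect at 48 h was below that at 24 h by the following differences. Sgca was at -2.50, Dag1 at -1.28, Sspn at -1.01, Dtna at -0.97, Sgcd at -0.85, Sgcb at -0.78 and Utrn at -0.55. The 24 and 48 h libraries sit in separate tables, with each effect taken within its own table.

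Between whole 120 h cultures and 48 h the effect differed by 1.41 for Sgcd and by -0.80 for Sgca. Sgcd was lower with dox at 48 h and overlapped between arms at 120 h, while Sgca was higher with dox at 48 h and overlapped at 120 h.

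Between the iCdh23 and iMcam lines the effect differed by -2.33 for Sgcd and -1.69 for Dtna, both lower with dox in each line. Against the iMyoD1 line at 48 h, in tests chosen after the data were seen, the iCdh23 effect differed by -1.65 for Sgca, -2.08 for Sgcd and -1.62 for Dtna. The contrasts of the iCdh23 line use the same iCdh23 libraries and are not independent of each other.

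Between 24 h and 0 h, also chosen after the data were seen, the effect differed by 1.18 for Sgca and 0.35 for Dag1, both higher with dox at each time. No library of a complex gene was tested for standing apart from its group, since the groups hold at most 3 libraries.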

How the results depend on the processing

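Members called changed in number when single libraries were left out: dox at 48 h 1 to 2 (1 with all libraries), whole 120 h cultures 0 to 1 (1), iCdh23 2 to 4 (2), iMcam 0 to 2 (1), 0 to 24 h with dox 1 to 2 (1), 24 to 48 h with dox 3 to 4 (4), 48 to 120 h 4 to 5 in either arm (4), and the interactions 120 h against 48 h 2 to 4 (2) and iCdh23 against iMcam 2 to 3 (2). The interaction of iMcam with iMyoD1, chosen after the data were seen, gave 0 to 1 (0), and 1 with DESeq2, with no low-count filter and with the replicate number as a block. Chosen likewise, iCdh23 against iMyoD1 gave 3 to 4 (3), and 24 against 0 h gave 2 to 3 (2), 3 blocked and 3 with no filter, and 4 with DESeq2. The fractions without dox gave 0, and 1, Dmd, with no low-count filter. With library sizes alone in place of TMM factors, chosen after the data were seen, the counts were 3 for dox at 24 h (1 with TMM), 0 in whole 120 h cultures (1), 1 in the myoblast-enriched fraction (0), 0 in the iMcam line (1) and 5 from 0 to 24 h without dox (3). On that scale 15.5%, 17.3%, 3.23%, 18.5% and 26.5% of all genes were called, in the same order. The shares of all genes with all libraries are given above, and none is given for the fits with a library left out.

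Among the alternative values of single members, 1989 kept their direction and side of the threshold, 39 came past it, 34 no longer passed it and 72 changed sign, none of them past the threshold at first. The number of members with their highest group mean in whole 120 h cultures was 7 with and without TMM factors. A single transcript led in every group for 7 members by counts and for 5 by length-scaled counts, and the shares of Dtna-201 and Dmd-203 moved by more than the spread between libraries on that scale. Fitted with the replicate number as a block, Sgcb in whole 120 h cultures no longer passed (edgeR adjusted p = 0.138), and Sgcd at 0 h (0.0313), Sgcd (0.00354), Sspn (0.00428) and Dtna (0.00206) with dox in the myoblast-enriched fraction, Sgca between fractions without dox (0.0477), Sgca between the iCdh23 and iMcam effects (0.0118), Utrn (0.0203) between the 24 and 0 h effects and Sgca (0.0238) between the iMcam and iMyoD1 effects passed, as did Sgca in the iMcam line. The block changed no other call of a complex gene, and outside the iMcam line the numbers were not taken to pair libraries.

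Changes of sign came mostly from leaving out 1 library, and the ranges are over those. With dox, Utrn at 0 h ran from -0.027 to 0.11, Dtna at 24 h from -0.018 to 0.10 (-0.015 with all groups of its table), Sgcb at 48 h from -0.057 to 0.021, and in whole 120 h cultures Sgca from -0.28 to 0.13 and Sgcd from -0.064 to 0.16. In the myoblast-enriched fraction Utrn ran from -0.38 to 0.12 and Dag1 from -0.21 to 0.078 (0.049 blocked). In the myotube-enriched fraction Dmd ran from -3.59 to 1.73, Dag1 from -0.48 to 0.051 and Sgca from -0.22 to 0.34 (-0.0034 with all groups). In the iMcam line Utrn ran from -0.043 to 0.081 and Sgcb from -0.023 to 0.034 (-0.0055 with DESeq2, -0.0054 with RLE factors, -0.011 with all groups). From 48 to 120 h with dox Sgca ran from -0.018 to 0.14.

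Between fractions without dox Dag1 ran from -0.072 to 0.12 (-0.019 with no filter) and Sspn from -0.034 to 0.46, and with dox Dag1 from -0.44 to 0.12 (0.12 blocked), Sgca from -0.25 to 0.18, Sgcb from -0.23 to 0.58, Sspn from -0.10 to 0.84 and Dtna from -0.23 to 0.99. The 120 h against 48 h interaction of Dmd ran from -0.57 to 3.63. Between the dox effects of the fractions Dmd ran from -3.50 to 1.81, Utrn from -0.41 to 0.10, Dag1 from -0.45 to 0.096, Sgcb from -0.75 to 0.039, Sgcd from -0.17 to 0.83, Sspn from -0.40 to 0.52 and Dtna from -0.75 to 0.45. Of the interactions chosen later, Sspn between 24 and 0 h ran from -0.013 to 0.12, and between iMcam and iMyoD1 Dag1 from -0.076 to 0.17, Sgcb from -0.034 to 0.059 (-0.010 with no filter) and Dtna from -0.10 to 0.16. With library sizes alone, the dox effect was 0.12 for Sgcb at 48 h, 0.17 for Utrn and 0.12 for Sgca in whole 120 h cultures, 0.038 for Dag1 in the myoblast-enriched and -0.037 for Sgca in the myotube-enriched fraction and 0.11 for Sgcb in the iCdh23 line, and Dag1 between fractions without dox was -0.054. The cause was not tested for any of these.

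Depth limited Dmd most, with at most 4 counts per library before 120 h and 1 to 11 counts in most fraction libraries. The fraction groups held 2 or 3 libraries with wide spread between them, which limits the precision there.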
